A study of Mus musculus with 4 samples.

Results

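The genes described here encode 40 proteins that fold, modify, translocate or export secretory proteins in the endoplasmic reticulum (ER). They were chosen by gene symbol, with earlier results of these data known. All 40 were found among the 17691 genes of the deposited expression table. The lungs came from wild type C57BL/6 mice, 6 to 8 weeks old, that had received bleomycin or PBS through the nose 10 days before. Bleomycin is a DNA-breaking agent used to provoke lung injury and fibrosis, and PBS is the buffer given to controls. The files hold 2 bleomycin libraries and 2 PBS libraries, although the design text speaks of triplicates and the protocol of 4 groups of mice, and other libraries were not analysed here. Nothing in the labels says whether each library came from a separate animal, so the p-values measure only the spread between these libraries, which may be technical.

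Secretory and membrane proteins enter the ER through the Sec61 channel, are folded by chaperones and disulfide isomerases, and leave in COPII-coated vesicles. Chaperones that escape are returned by KDEL receptors, and proteins that fail to fold are sent back to the cytosol for degradation. When unfolded proteins build up, the sensors ATF6, IRE1 (Ern1) and PERK (Eif2ak3) switch on the unfolded protein response. In the lung this machinery serves surfactant secretion by alveolar type II cells, antibody secretion by plasma cells and collagen secretion by fibroblasts.

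Gene levels are given as FPKM, fragments scaled to transcript length and to the mapped fragments of the library. Low values move in steps worth 1 fragment, which put the depth at 17300000 and 17800000 fragments for the bleomycin libraries and 17000000 and 17200000 for the PBS libraries. Alveolar type II markers were abundant in all 4 libraries, Sftpc (surfactant protein C) standing at 10882 and 7913 FPKM with bleomycin and at 10221 and 12788 FPKM with PBS. The Y-linked genes Eif2s3y, Ddx3y, Kdm5d and Uty were at 0 to 0.02 FPKM in the bleomycin libraries and at 3.28 to 28.9 FPKM in the PBS libraries. Sex and treatment therefore cannot be told apart for any of the 40 genes, although 0 of them lie on a sex chromosome. In whole lung, a larger share of a cell type and more RNA per cell cannot be told apart either.

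Known DNA elements of the unfolded protein response were searched for in the promoters. The list holds known genes of this response, so matches among them are a description and do not test the choice of genes. In RefSeq promoter sequences (GRCm38.p6, from 250 bases before to 50 bases after the start), 32 of the 40 genes had an entry. An exact ER stress element, CCAAT followed by any 9 bases and CCACG, stood in the promoters of 9 of these 32 genes (28.1%), against 0.119% of all 32851 promoters, on either strand. They were Hspa5, Hsp90b1 (with 2 copies), Calr, Canx, Dnajc3, Creld2, Pdia6, Ero1lb and Syvn1. The ER stress element II, ATTGG followed by any base and CCACG, was found for Herpud1 and Dnajb11, against 0.0365% of all promoters. The unfolded protein response element TGACGTGG was found for Sec23a, Sec24d and Kdelr3, against 0.676% of all promoters. The elements share the letters CCACG or their complement CGTGG, and 14 of the 32 genes held 1 kind of element each, the others none. Shown here, because they carry 1 of the 3 kinds of element each, are the 180 bases before the start of 5 genes whose level passed the test described further on, with the fixed letters of each element in capitals. They lie at chr2:34771910-34772089 (Hspa5, plus strand), chr8:84846932-84847111 (Calr, minus strand), chr8:94386249-94386428 (Herpud1, plus strand), chr15:79516228-79516407 (Kdelr3, plus strand) and chr3:123267316-123267495 (Sec24d, plus strand, before the start that the promoter table gives, which lies inside the annotated gene).
Hspa5: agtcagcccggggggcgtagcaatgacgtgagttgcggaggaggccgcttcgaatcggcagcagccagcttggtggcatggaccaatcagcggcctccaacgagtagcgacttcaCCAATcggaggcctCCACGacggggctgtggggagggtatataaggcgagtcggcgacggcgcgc
Calr: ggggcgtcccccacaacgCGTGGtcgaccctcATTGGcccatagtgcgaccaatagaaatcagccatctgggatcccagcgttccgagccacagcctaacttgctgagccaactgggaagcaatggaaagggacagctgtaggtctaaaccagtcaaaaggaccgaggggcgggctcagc
Herpud1: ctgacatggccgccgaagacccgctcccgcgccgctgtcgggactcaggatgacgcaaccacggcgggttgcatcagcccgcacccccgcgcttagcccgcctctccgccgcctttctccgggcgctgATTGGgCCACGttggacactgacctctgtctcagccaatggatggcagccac
Kdelr3: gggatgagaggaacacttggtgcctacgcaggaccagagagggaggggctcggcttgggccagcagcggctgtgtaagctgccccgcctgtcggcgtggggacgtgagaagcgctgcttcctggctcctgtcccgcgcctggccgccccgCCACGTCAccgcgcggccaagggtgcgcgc
Sec24d: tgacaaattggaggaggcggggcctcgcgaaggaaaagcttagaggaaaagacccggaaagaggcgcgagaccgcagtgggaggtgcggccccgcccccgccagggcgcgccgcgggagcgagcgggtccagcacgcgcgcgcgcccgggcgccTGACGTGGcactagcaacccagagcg
In Hspa5, Herpud1 and Sec24d the element reads along the gene, and in Calr and Kdelr3 it lies on the opposite strand. A match describes the letters of these windows and is not evidence that a factor binds there.

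The comparison asks which genes of the ER differed in lung after bleomycin. Most stood higher. Of the 40 genes, all of which lay above the filter on low values in every library, 15 rose and 1 fell by limma's test (adjusted p under 0.05 over all genes), and 24 were not called. Among all 12986 genes tested, 8.59% rose and 7.69% fell. The median log2 fold change, bleomycin over PBS, was 0.34 for the 40 genes and -0.02 for all genes tested. As the 40 genes were chosen with earlier results known, these values describe them and do not test the set. Without overlap between the groups, 32 of the 40 genes were higher with bleomycin and 4 were lower. Among all genes tested 66.5% were free of overlap, 31.5% higher and 35.0% lower. Their summed level was 3232 and 3087 FPKM with bleomycin, against 2490 and 2409 FPKM with PBS. These sums are 0.682% and 0.669% of all FPKM in the bleomycin libraries and 0.511% and 0.489% in the PBS libraries. The calls rest on both PBS libraries: when 1 of them was left out, limma called 0 of the 40 genes and 0 of all genes, the median SD on the log2 scale being 0.115 in the bleomycin pair and 0.0637 in the PBS pair. Without PBS replicate 1 the median log2 fold change was 0.33 for the 40 genes and -0.016 for all genes. Without PBS replicate 2 these medians were 0.341 and -0.029. Leaving out bleomycin replicate 2 gave 26 rises and 2 falls, when calls over all genes also grew, to 18.5% higher and 15.0% lower. Testing all genes with no filter on low values gave 9 rises and 1 fall, beside 4.58% and 4.18% of all genes.

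**Figure D1:**
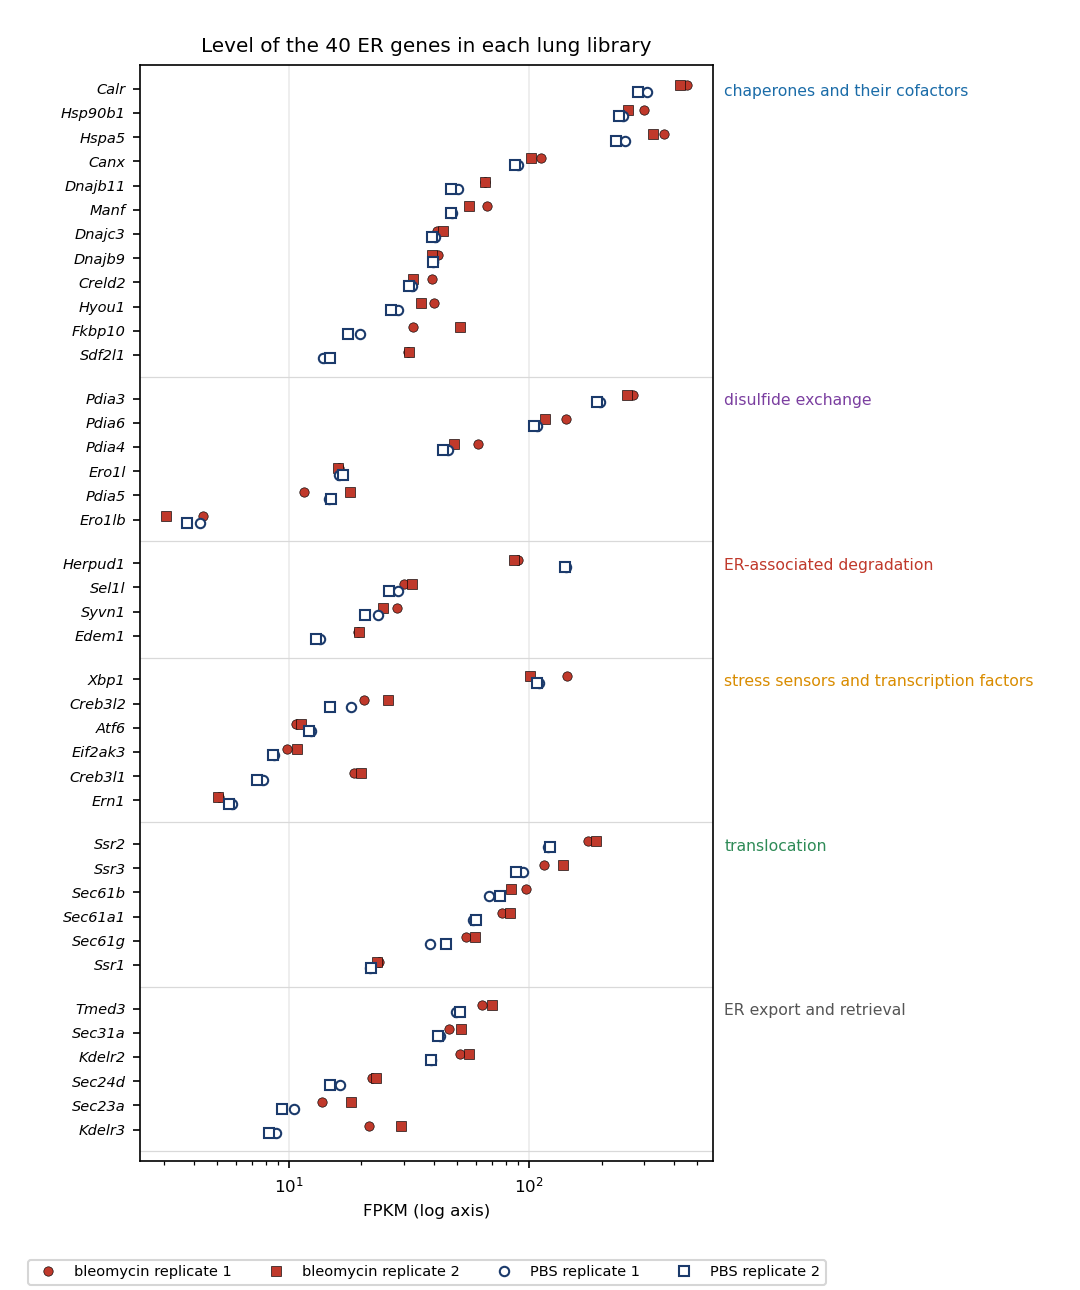
Level of each of the 40 genes in FPKM (log axis) in the bleomycin libraries (filled) and the PBS libraries (open), by role and, within a role, from the highest to the lowest mean PBS level. Levels span from 3.08 FPKM (Ero1lb) to 453 FPKM (Calr), and for 32 genes both bleomycin points lie to the right of both PBS points.

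The 3 genes with the highest PBS levels, Calr, Hsp90b1 and Hspa5, encode chaperones. Calr, which encodes calreticulin, a lectin chaperone that binds glucose-trimmed glycoproteins and calcium (chromosome 8, 84842088 to 84846931, GRCm38.p6 as for all positions), stood at 453 and 425 FPKM with bleomycin and at 309 and 284 FPKM with PBS. Both bleomycin libraries lay above both PBS libraries, and the log2 fold change was 0.57 ± 0.11 (SE, 2 libraries in each group, limma adjusted p = 0.0324). Fold changes are of FPKM + 1, which understates those of low genes. Hspa5, which encodes BiP, the Hsp70 of the ER that also holds the stress sensors inactive (chromosome 2, 34772090 to 34776529), had 363 and 328 FPKM with bleomycin, against 249.6 and 229 FPKM with PBS. It rose by 0.53 ± 0.11 on the log2 scale (adjusted p = 0.0394).

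2 less abundant genes changed more. Sdf2l1, which encodes a subunit of ER chaperone complexes with BiP and J proteins (chromosome 16, 17130138 to 17132383), had 31.3 and 31.7 FPKM with bleomycin, against 13.9 and 14.8 FPKM with PBS. The replicates lay close together in both groups, and the mean was 2.2 times as high with bleomycin (log2 fold change 1.08 ± 0.08, adjusted p = 0.00626). Fkbp10, which encodes FKBP65, a prolyl isomerase and chaperone of procollagen (chromosome 11, 100415694 to 100424840), had 32.8 and 51.5 FPKM with bleomycin, against 19.7 and 17.5 FPKM with PBS. Both bleomycin values were higher than both PBS values but lay far apart, and the log2 fold change was 1.10 ± 0.23 (adjusted p = 0.038).

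Cofactors of BiP divided. Dnajb11, a J protein that brings clients to BiP, had 65.3 and 65.2 FPKM with bleomycin, against 50.6 and 47.3 FPKM with PBS (0.41 ± 0.08, adjusted p = 0.0354). Hyou1, a large Hsp70-like nucleotide exchange factor of BiP, had 40.2 and 35.5 FPKM with bleomycin, against 28.5 and 26.6 FPKM with PBS (0.44 ± 0.10, adjusted p = 0.0464). Both rose without overlap. Dnajb9, a J protein known as a repressor of IRE1, had 41.7 and 39.3 FPKM with bleomycin, against 39.6 and 39.8 FPKM with PBS, and its groups overlapped (adjusted p = 0.834). Dnajc3, a further J protein, had 41.1 and 43.8 FPKM with bleomycin, against 40.5 and 39.4 FPKM with PBS (adjusted p = 0.491).

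For the other 4 chaperone genes the groups did not overlap, yet the test was not passed. Hsp90b1, the ER Hsp90 (Grp94), had 300.2 and 257 FPKM with bleomycin, against 247 and 236 FPKM with PBS (0.20 ± 0.12, adjusted p = 0.279). Canx, the membrane-bound partner of calreticulin, had 112 and 102 FPKM with bleomycin, against 89.8 and 87.2 FPKM with PBS (0.27 ± 0.09, adjusted p = 0.108). Manf and Creld2, both stress-induced ER proteins that can be secreted, had log2 fold changes of 0.36 ± 0.11 (adjusted p = 0.0938) and 0.16 ± 0.11 (adjusted p = 0.348). In all, 6 of 12 chaperone and cofactor genes rose and 0 fell, with a median log2 fold change of 0.38.

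Disulfide exchange genes held 1 rise among 6. Pdia3, the isomerase that works with calreticulin and calnexin, had 271 and 256 FPKM with bleomycin, against 197 and 191 FPKM with PBS (0.44 ± 0.09, adjusted p = 0.0398). The other abundant isomerase genes did not pass. Pdia6 had 143 and 117 FPKM with bleomycin, against 107 and 105 FPKM with PBS (0.28 ± 0.12, adjusted p = 0.178), and Pdia4 had 61.3 and 48.5 FPKM with bleomycin, against 45.7 and 43.7 FPKM with PBS (0.28 ± 0.13, adjusted p = 0.204). Pdia5 had 11.5 and 18 FPKM with bleomycin, on either side of 14.7 and 14.9 FPKM with PBS. The oxidase genes, whose products pass electrons from the isomerases to oxygen, did not pass either. Ero1l had 16.1 and 16 FPKM with bleomycin, against 16.2 and 16.8 FPKM with PBS (adjusted p = 0.789), and Ero1lb, the least abundant of the 40 genes, had 4.38 and 3.08 FPKM with bleomycin, against 4.24 and 3.74 FPKM with PBS (adjusted p = 0.745). The median log2 fold change over the role was 0.12.

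**Figure D2:**
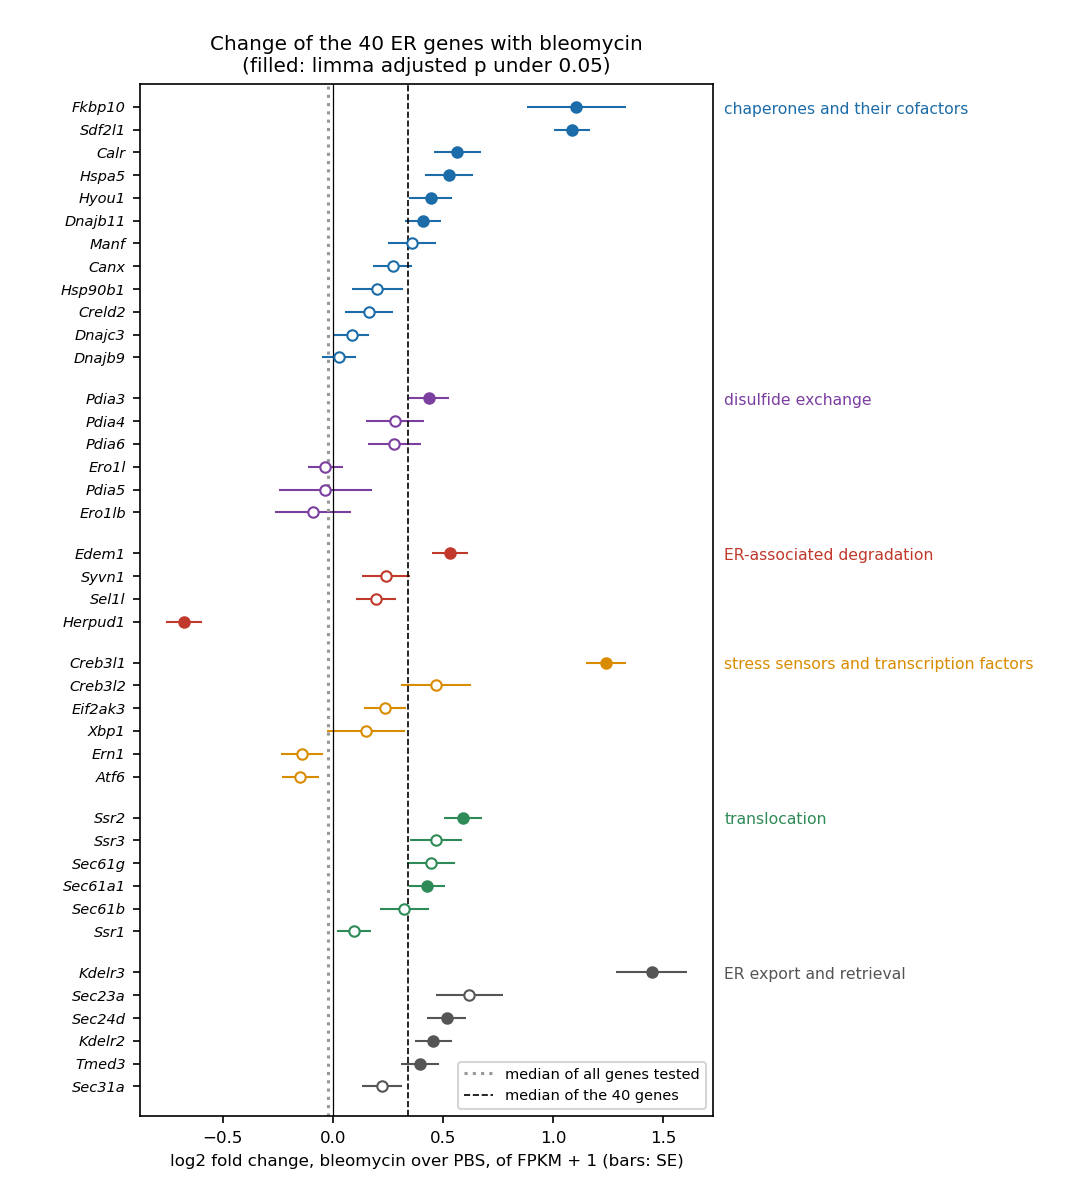
Log2 fold change of FPKM + 1, bleomycin over PBS, with its SE for each of the 40 genes, by role. Filled points passed limma at an adjusted p under 0.05, 15 above 0 and 1 (Herpud1) below it, and the dashed and dotted lines mark the medians of the 40 genes (0.34) and of all genes tested (-0.02).

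Of the 4 genes of ER-associated degradation, 1 rose, 1 fell and 2 were not called. Edem1, a lectin that hands mannose-trimmed misfolded glycoproteins to degradation, had 19.4 and 19.5 FPKM with bleomycin, against 13.4 and 12.9 FPKM with PBS (0.53 ± 0.08, adjusted p = 0.0204). Herpud1, a membrane protein that assembles the degradation complex and a strongly stress-induced gene (chromosome 8, 94386429 to 94395371), was the 1 gene of the 40 that fell. It stood at 90.1 and 86.4 FPKM with bleomycin, below 142 and 141 FPKM with PBS (-0.68 ± 0.08, adjusted p = 0.013). The ubiquitin ligase gene Syvn1 (HRD1) had 28 and 24.7 FPKM with bleomycin, against 23.5 and 20.8 FPKM with PBS, and its partner gene Sel1l had 30.1 and 32.4 FPKM with bleomycin, against 28.4 and 26 FPKM with PBS. Neither of the pair passed (adjusted p = 0.193 and adjusted p = 0.2), although the groups did not overlap for either.

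The 3 sensors of the unfolded protein response did not pass the test. Atf6, whose product is cut to a transcription factor in the Golgi, had 10.7 and 11.2 FPKM with bleomycin, against 12.3 and 12.2 FPKM with PBS (-0.15 ± 0.08, adjusted p = 0.277). Ern1, which encodes the kinase and nuclease IRE1, had 5.09 and 5.03 FPKM with bleomycin, against 5.75 and 5.61 FPKM with PBS (-0.14 ± 0.10, adjusted p = 0.356). Eif2ak3, which encodes the translation-inhibiting kinase PERK, had 9.81 and 10.8 FPKM with bleomycin, against 8.61 and 8.56 FPKM with PBS (0.23 ± 0.09, adjusted p = 0.155). The first 2 stood lower and the third higher, each without overlap. Xbp1, the factor whose mRNA IRE1 splices, had 143 and 101 FPKM with bleomycin, around 109 and 107 FPKM with PBS (adjusted p = 0.588). Values per gene do not tell spliced from unspliced Xbp1 mRNA.

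Creb3l1 and Creb3l2 encode ER membrane factors that are cut in the Golgi like ATF6. Creb3l1 (OASIS), known in mouse osteoblasts to activate the type I collagen gene Col1a1 (chromosome 2, 91982328 to 92024170), had 18.5 and 19.9 FPKM with bleomycin, against 7.81 and 7.33 FPKM with PBS. Its mean was 2.54 times as high and the libraries of each group lay close together (1.24 ± 0.09, adjusted p = 0.00621). Creb3l2, known in mouse cartilage to drive Sec23a, had 20.5 and 25.9 FPKM with bleomycin, against 18.1 and 14.8 FPKM with PBS (0.47 ± 0.16, adjusted p = 0.11). In the same libraries Col1a1 stood at 327 and 435 FPKM with bleomycin and at 96.6 and 83.1 FPKM with PBS. A link between Creb3l1 and Col1a1 in these lungs was not tested.

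All 6 translocation genes were higher with bleomycin without overlap, and 2 passed. Ssr2, a subunit of the translocon-associated TRAP complex, had 177 and 189 FPKM with bleomycin, against 119.7 and 122 FPKM with PBS (0.59 ± 0.09, adjusted p = 0.0194). Sec61a1, the pore of the channel, had 76.9 and 83.2 FPKM with bleomycin, against 58.5 and 60.05 FPKM with PBS (0.43 ± 0.08, adjusted p = 0.0351). Its small partner subunits lay near the threshold or above it. Sec61g had 54.7 and 59.3 FPKM with bleomycin, against 38.5 and 45 FPKM with PBS (0.44 ± 0.11, adjusted p = 0.0575), and Sec61b had 96.5 and 83.7 FPKM with bleomycin, against 67.9 and 75.5 FPKM with PBS (0.32 ± 0.11, adjusted p = 0.115). The other TRAP subunits were at log2 fold changes of 0.47 ± 0.12 (Ssr3, adjusted p = 0.0601) and 0.09 ± 0.08 (Ssr1, adjusted p = 0.425). The median of the 6 genes was 0.44.

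The genes of ER export and retrieval were likewise all higher without overlap, and 4 of 6 rose. Kdelr3, a receptor that returns KDEL-bearing chaperones from the Golgi (chromosome 15, 79516408 to 79527739), had 21.5 and 29.1 FPKM with bleomycin, against 8.83 and 8.27 FPKM with PBS. Its mean was 2.96 times as high, the largest ratio among the 40 genes (1.45 ± 0.16, adjusted p = 0.0117). Kdelr2, a second such receptor, had 51.4 and 56.2 FPKM with bleomycin, against 39 and 38.8 FPKM with PBS (0.46 ± 0.08, adjusted p = 0.0308). Kdelr2 was the more abundant of the pair in every library.

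In the COPII coat, Sec24d, a cargo-binding subunit of the inner layer, had 22.2 and 23.1 FPKM with bleomycin, against 16.2 and 14.8 FPKM with PBS (0.52 ± 0.09, adjusted p = 0.0259). Sec23a, its inner coat partner, mutated in a human craniofacial disorder, had 13.7 and 18 FPKM with bleomycin, against 10.5 and 9.31 FPKM with PBS (0.62 ± 0.15, adjusted p = 0.0584). Its mean was 1.6 times as high, but the bleomycin libraries lay apart. Sec31a, of the outer coat, had 46.4 and 52.2 FPKM with bleomycin, against 42.3 and 41.7 FPKM with PBS (0.22 ± 0.09, adjusted p = 0.16). Tmed3, a p24 family cargo receptor, had 63.7 and 70 FPKM with bleomycin, against 49.7 and 51.4 FPKM with PBS (0.39 ± 0.09, adjusted p = 0.0454). The median over the role was 0.49.

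**Figure D3:**
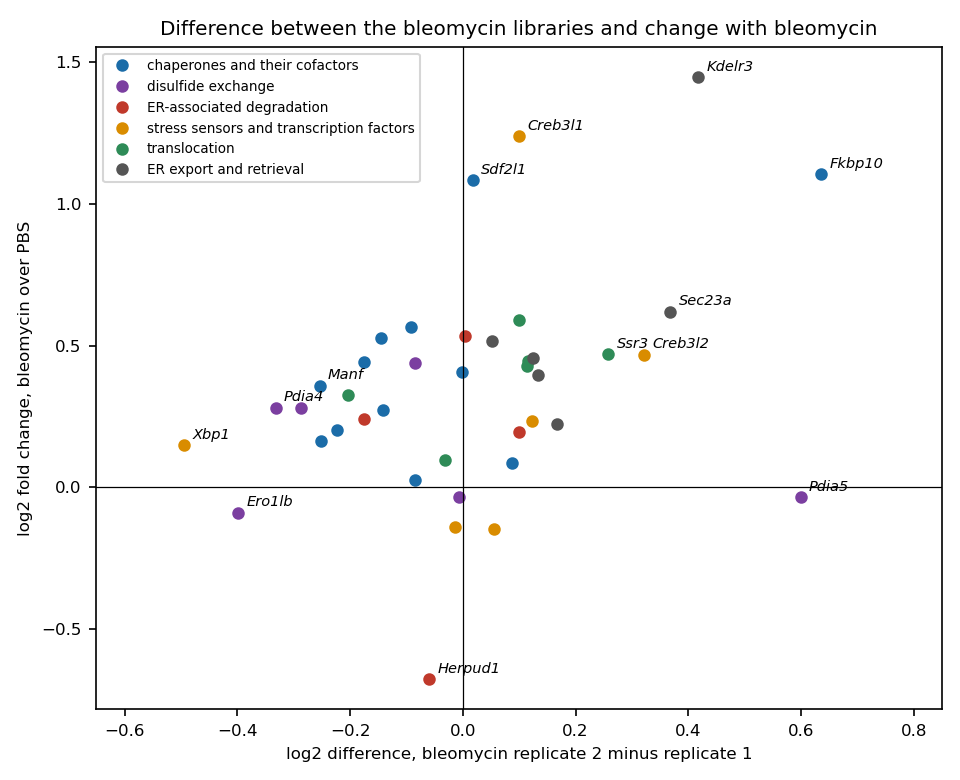
Log2 fold change, bleomycin over PBS, of each of the 40 genes against the log2 difference between bleomycin replicate 2 and bleomycin replicate 1, coloured by role. All 6 export and retrieval genes lie right of 0 and 9 of 12 chaperone genes left of it, from Xbp1 (-0.49) to Fkbp10 (0.64).

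Between the bleomycin libraries, replicate 2 was the higher for 20 of the 40 genes, beside 37.4% of all genes tested. By role these were 6 of 6 export and retrieval genes, 4 of 6 translocation genes, 4 of 6 sensor and factor genes, 2 of 4 degradation genes, 3 of 12 chaperone and cofactor genes and 1 of 6 disulfide exchange genes. No difference between roles was tested. The largest such differences were those of Fkbp10 (0.64), Pdia5 (0.60) and Kdelr3 (0.42) towards replicate 2 and of Xbp1 (-0.49), Ero1lb (-0.40) and Pdia4 (-0.33) towards replicate 1, on the log2 scale. Between the PBS libraries the median difference over the 40 genes was -0.04. Plasma and B cell markers were also lower in bleomycin replicate 2, where 7 of 8 tested markers lay below replicate 1, Cd79a being at 16.4 and 2.34 FPKM with bleomycin and at 13.2 and 12.9 FPKM with PBS. With 2 libraries these are descriptions, and the part of any cell type in them was not tested.

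Markers of several cell types moved in the same comparison. Fibroblast markers summed to 1280 and 1428 FPKM with bleomycin, against 630 and 572 FPKM with PBS, with 5 of 7 risen and 1 fallen. Myofibroblast markers summed to 509 and 701 FPKM with bleomycin, against 369 and 379 FPKM with PBS, with 3 of 5 tested markers risen. Macrophage markers summed to 1140 and 686 FPKM with bleomycin, against 134 and 141 FPKM with PBS, with 5 of 7 risen, and all 5 cycling cell markers rose. Alveolar type II markers summed to 14030 and 10990 FPKM with bleomycin, against 12890 and 15660 FPKM with PBS, with 2 of 8 risen and 0 fallen. Plasma and B cell markers summed to 148 and 142 FPKM with bleomycin, against 101 and 94.5 FPKM with PBS, of which Sdc1, which epithelium also expresses, made up 103 and 131 FPKM with bleomycin and 60.5 and 53.8 FPKM with PBS. Falls were found among markers of red blood cells (5 of 5 tested), hepatocytes (7 of 7), endothelium (2 of 6), club cells (2 of 5 tested) and ciliated cells (1 of 5), and alveolar type I markers held 1 rise and 2 falls among 6. Hepatocyte markers summed to 9.17 and 7.42 FPKM with bleomycin, against 91.7 and 90.5 FPKM with PBS. In these lists 0 markers were at 0 FPKM in any library, and their part in the changes of the ER genes was not tested.

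Most further genes of the pathway were not called. Of 158 further genes of the same 6 roles, 157 were found and 151 tested. Among these 14 rose (9.27%, beside 8.59% of all genes), 3 fell and 134 did not pass, with a median log2 fold change of 0.13. Without overlap, 85 of the 151 were higher with bleomycin and 13 lower, beside 31.5% and 35.0% of all genes tested. Rescaled to TPM, which brings each library to the same sum, the numbers were 27 higher and 2 lower, beside 11.1% and 6.83% of all genes. Without a filter 7 rose, beside 4.58% of all genes. Leaving out bleomycin replicate 1 gave 47 rises and 12 falls, beside 18.0% and 24.2% of all genes. Leaving out bleomycin replicate 2 gave 36 rises and 10 falls, beside 18.5% and 15.0%. Leaving out either PBS library left no calls in this list, as over all genes, and with 1 PBS library no further count is read.

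Several of the genes that rose are known for procollagen folding, but other prolyl isomerase genes of the list did not pass. Among these were Fkbp11 (0.52 ± 0.16, adjusted p = 0.091), Ppib (0.35 ± 0.11, adjusted p = 0.103) and Fkbp14 (0.31 ± 0.11, adjusted p = 0.121). Fkbp7 (0.04 ± 0.09, adjusted p = 0.801), Fkbp2 (-0.03 ± 0.08, adjusted p = 0.84) and Fkbp9 (-0.25 ± 0.10, adjusted p = 0.152) did not pass either. Ppic, a prolyl isomerase gene, had 190 and 274 FPKM with bleomycin, against 98.4 and 94.1 FPKM with PBS (1.24 ± 0.19, adjusted p = 0.0214). Serpinh1, the collagen chaperone HSP47, had 343 and 316 FPKM with bleomycin, against 226 and 212 FPKM with PBS (0.58 ± 0.10, adjusted p = 0.0269), and P4hb, a disulfide isomerase and subunit of prolyl 4-hydroxylase, had 251 and 322 FPKM with bleomycin, against 184 and 180 FPKM with PBS (0.64 ± 0.15, adjusted p = 0.0483). Uggt1, the glucosyltransferase that returns glycoproteins to calnexin and calreticulin, rose by 0.37 ± 0.08 (adjusted p = 0.0479), while Sec62, a translocon partner, fell (-0.42 ± 0.08, adjusted p = 0.037). In disulfide exchange the peroxidase genes Gpx7 (0.66 ± 0.08, adjusted p = 0.0145) and Prdx4 (0.48 ± 0.09, adjusted p = 0.0299) and the isomerase gene Txndc5 (0.39 ± 0.08, adjusted p = 0.0444) rose. In translocation and N-glycan transfer, 4 of 28 genes rose, namely Tram2 (0.60 ± 0.12), Ostc (0.49 ± 0.09), Spcs3 (0.46 ± 0.08) and Ddost (0.36 ± 0.08). Surf4, a cargo receptor, was the 1 of 43 further export genes that rose (0.69 ± 0.15, adjusted p = 0.0444), and 0 of 23 further degradation genes passed in either direction, with 4 at an unadjusted p under 0.05, beside 35.3% of all genes.

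2 genes of transcription factors that act downstream of PERK fell. Ddit3 (CHOP), a factor linked to cell death under ER stress, had 26.2 and 23.1 FPKM with bleomycin, against 37.3 and 37.3 FPKM with PBS (-0.58 ± 0.09, adjusted p = 0.0228). Atf5, a related factor, had 59.9 and 52.4 FPKM with bleomycin, against 89.7 and 86.2 FPKM with PBS (-0.64 ± 0.10, adjusted p = 0.0211). Both fell without overlap, as Herpud1 did. Eif2s1, which encodes the translation factor subunit that PERK phosphorylates, rose by 0.50 ± 0.11 (adjusted p = 0.0411). Among 14 tested genes of this role 1 rose, 2 fell and 11 did not pass. Atf4, named here after its values were seen, had 130.3 and 119 FPKM with bleomycin, around 109.8 and 128 FPKM with PBS (adjusted p = 0.679).

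**Figure D4:**
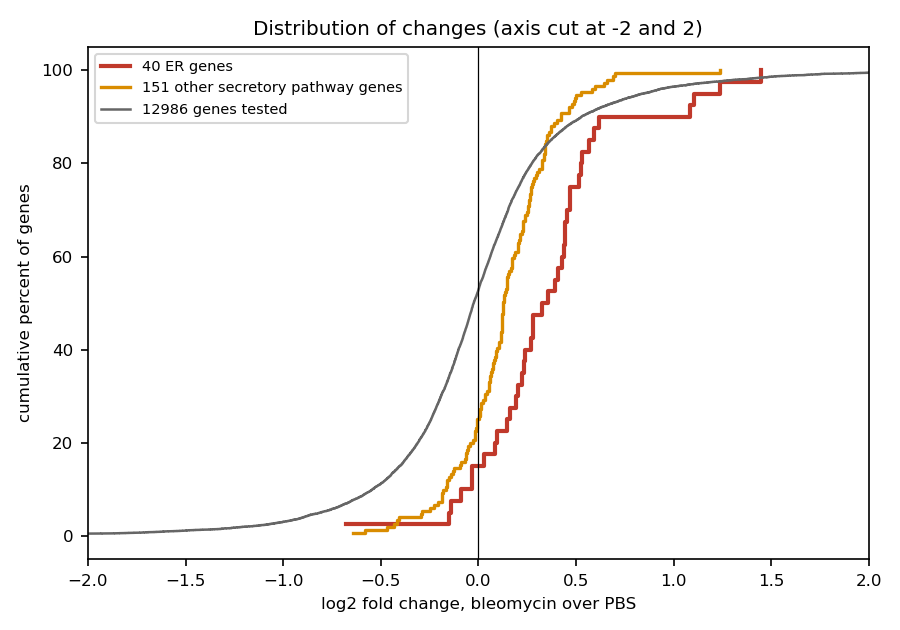
Cumulative percent of genes by log2 fold change, bleomycin over PBS, for the 40 ER genes, the 151 other secretory pathway genes tested and all 12986 genes tested, between -2 and 2. The medians are 0.34, 0.13 and -0.02.

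Beside the promoter sequences, the 9 genes with an exact ER stress element held 2 rises (Calr and Hspa5) and a median log2 fold change of 0.24. The 23 others with a promoter entry held 7 rises and 1 fall and a median of 0.32. These 23 are not free of elements, as they include Dnajb11, Herpud1, Sec23a, Sec24d and Kdelr3. The 8 genes without an entry held 6 rises. Of the genes with the ER stress element II, Dnajb11 rose and Herpud1 fell. Of those with the unfolded protein response element, Kdelr3 and Sec24d rose and Sec23a did not pass. These are descriptions of small groups, with no test of a difference between them.

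**Figure D5:**
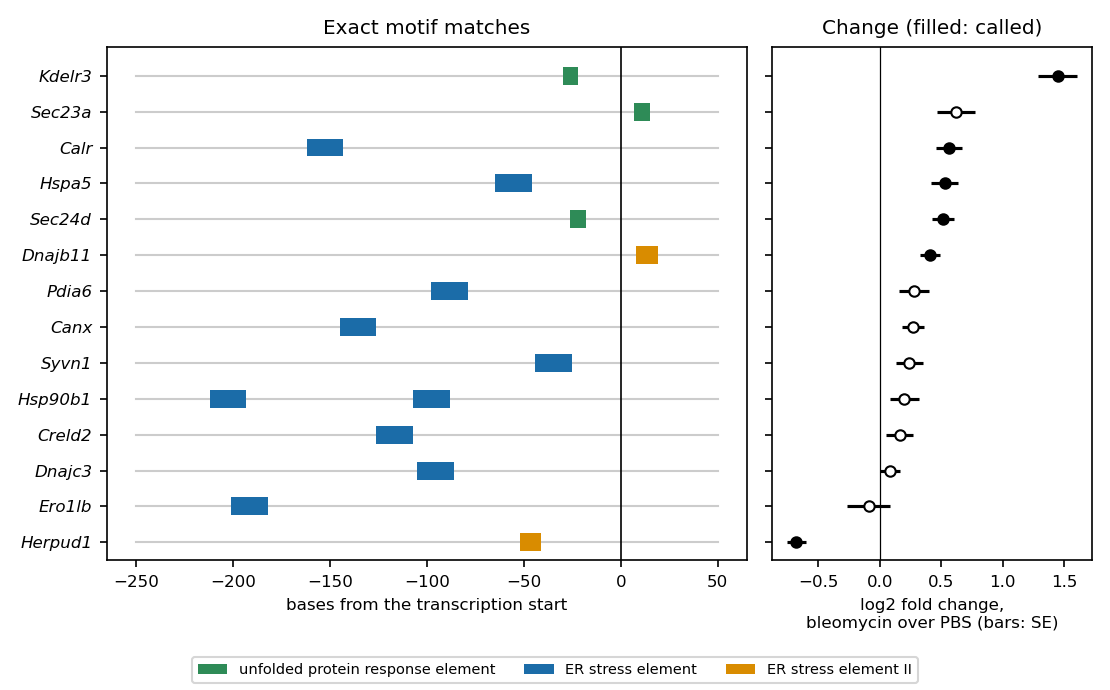
Left, position of each exact element in the 14 promoters that held one, in bases from the transcription start, and right, the log2 fold change, bleomycin over PBS, with its SE (filled where limma passed). Genes run from Kdelr3 (1.45) at the top to Herpud1 (-0.68) at the bottom. Of the 9 genes with an ER stress element 7 were not called, beside 24 of all 40 genes and 10872 of all 12986 genes tested.

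Some values rest on shared annotation. In GENCODE M21, exons of 3 of the 40 genes overlap an exon of another gene on the same strand, namely Hsp90b1, Manf and Pdia4, which were not called. Exons of 11 of the 40 genes overlap an exon of a gene on the opposite strand. The strand setting of the counting is not given in the sources used here, so fragments of opposite-strand pairs cannot be told apart. Among the genes that rose these were Kdelr3 (with Ddx17), Fkbp10 (Nt5c3b), Pdia3 (Catsper2) and Sec61a1 (Gm44170). Ddx17 was at 143 and 144 FPKM with bleomycin and at 162 and 147 FPKM with PBS, and Nt5c3b at 14.3 and 14.4 FPKM with bleomycin and at 14.3 FPKM in both PBS libraries. Neither Ddx17 nor Nt5c3b passed the test.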

How the data were processed

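RNA from whole lung was measured in 2 bleomycin and 2 PBS libraries, grouped and numbered by title. The authors supplied FPKM values, deposited as 1 table with a column for each library, per the file headers. The submitters' processing notes list Bowtie2, HISAT, mm10 and GRCm38; which step used which, the versions and the quantification tool are not given in the sources consulted. In FPKM an abundant transcript lowers the rest: Scgb1a1 took 3.98% and 4.28% of summed FPKM with bleomycin and 11.2% and 8.35% with PBS.

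An unnamed row (at most 0.0009% of the sum of any library) was dropped and 27 symbols that had become dates were restored through RefSeq, which left 17691 genes. Positions and promoters are from RefSeq, assembly GRCm38.p6 (17655 genes matched). The depth estimate used transcripts of 300 to 1000 bases at 0.03 to 0.3 FPKM. The chosen depth made 75% to 78.1% of these values whole to within 0.15 fragments (30% by chance), though it was picked on them. With no counts, no count model was run.

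Log2(FPKM + 1) was tested in limma 3.58.1 under R 4.3.3 (eBayes with a trend, two-sided, Benjamini-Hochberg adjustment) for the 12986 genes averaging 1 FPKM or more, with 2 residual and 2.76 prior degrees of freedom. The 40 genes, the lists and the tests were chosen with earlier results of these data known. The naming rule gave full values for called genes, sensors and the 2 most abundant others per role. It also gave up to 4 called genes per role of the further list. The remaining members are named to account for all 40. Atf4 and the prolyl isomerase genes of the further list that did not pass were named outside this rule. In a simulation of the bleomycin against PBS comparison over 12986 genes, 200 of them changed, 78% of 2-fold and 97% of 4-fold changes were called. There were 12 false calls among 187. Changes under 2-fold, as most of those called among the 40 genes were, were not simulated, so these rates do not cover them. The alternatives changed the pseudocount, filter, scaling or variance model, added a replicate block, or dropped a library. Tables were made in Python 3.11.15 with numpy 2.4.6 and pandas 2.3.3. Protein sequences were not used here.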

Additional observations from a re-analysis of the deposited data

How the results depend on the processing

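Direction was the same for all 16 called genes of the 40 under the 15 alternatives. All 16 stayed called with pseudocounts of 0.1 and 0.5, with a filter at 5 FPKM, with a robust variance model, rescaled to TPM, and without either bleomycin library. Upper quartile and median ratio scaling lost Tmed3, quantile normalization lost 3 of them and a variance model without trend 4. Without a filter on low values 9 rises of the 40 were left, and 7 of the further pathway list. The variance model without trend gave 7 rises in that list and rescaling to TPM 27. With the replicate block, 6 of the 40 genes rose (Sdf2l1, Fkbp10, Edem1, Creb3l1, Ssr2 and Kdelr3) and Herpud1 fell. In that fit 3 further pathway genes rose and 2 fell, and of all genes 6.48% rose and 6.15% fell. The numbers give no pairing by label, and deviations of same-numbered libraries correlated by 0.023 over 12986 genes.

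Leaving out 1 library gave 0 to 2402 rises and 0 to 3144 falls over all genes, 0 to 26 rises and 0 to 2 falls among the 40, and 0 to 47 rises and 0 to 12 falls in the further pathway list. The counts of 0 came without PBS replicate 1 and without PBS replicate 2, where 1 PBS library is assumed to vary like the bleomycin pair. Without bleomycin replicate 1, Pdia5 changed sign to 0.265 and was called (adjusted p = 0.0472), and without bleomycin replicate 2 it was called lower at -0.335 (adjusted p = 0.0296), against -0.03 with all libraries. The cause was not tested. No scaling moved the median of all genes by over 0.1. With the settings of the report, the smallest called change among the 40 genes was 0.39 (Tmed3).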
